A study of Mus musculus with 6 samples.

Results

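Malat1, Neat1, Meg3, Rian, Mir100hg, Gas5, Snhg1 and Mir22hg are 8 mouse genes for long noncoding RNAs (lncRNAs), transcripts that act without being translated. They were picked by name, as familiar lncRNAs, from the 11608 lncRNA genes among the 56884 genes of the mouse count table, by a rule that uses no measured value, although earlier results of these data were known when they were chosen. Each identifier of the table was paired with its name through the gencode mouse annotation. All 8 genes passed the filter of at least 10 counts over the 6 libraries, which 2127 lncRNA genes passed.

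The libraries came from livers of male athymic BALB/c (nu/nu) animals, 6 weeks old at implantation, that carried an orthotopic tumor of the human hepatocellular carcinoma line QGY-7703. The labels give the genotype of all the animals as WT, beside the nude strain, and athymic mice lack mature T cells. The siControl group received a control siRNA and the siAATF group an siRNA against mouse AATF, a transcription regulator with roles in cell survival, in both groups from an AAV8 vector given by tail vein 1 week after implantation and, by the methods of the study, followed for 3 weeks. The vector carried the TBG promoter, which is active in hepatocytes, and the study meant it to silence AATF in the mouse tissue around the tumor. Each group had 3 libraries of total RNA, and the labels do not say whether these came from separate animals, so that the p-values measure the spread between libraries.

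Many lncRNAs stay in the nucleus, where some hold together bodies of RNA and protein, while others are mainly the precursors of small RNAs. Malat1 is a very abundant nuclear RNA of the nuclear speckles, which store splicing factors, and Neat1 is the scaffold of the paraspeckles. Meg3 and Rian are transcribed from the maternal allele of the imprinted Dlk1-Dio3 region, Mir100hg and Mir22hg are host genes of microRNAs, and Gas5 and Snhg1 carry small nucleolar RNAs (snoRNAs), guides of ribosomal RNA modification, in their introns.

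For each of the 4 microRNA genes within the 2 microRNA host genes, 1 mature sequence is shown, since these small RNAs are what the hosts are named for. The RefSeq table held 7 mature sequences of these hosts, and let-7a-2-3p was the only arm it held for Mirlet7a-2. Capitals mark the seed, bases 2 to 8, which pairs with target RNAs. The sequences are those of RefSeq, written 5′ to 3′.
miR-100-5p, in Mir100hg: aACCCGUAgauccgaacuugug
let-7a-2-3p, in Mir100hg: cUGUACAGccuccuagcuuuc
miR-125b-5p, in Mir100hg: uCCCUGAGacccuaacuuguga
miR-22-3p, in Mir22hg: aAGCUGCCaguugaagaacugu

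These 4 seeds differ from each other. The RefSeq table held 9 of the 10 microRNA genes that lie within the 8 genes on the same strand, with 16 mature sequences. All 10 microRNA genes had 0 counts in all 6 libraries, although the hosts were counted, and the kit was not one for small RNAs. In all, 41 genes of microRNAs or snoRNAs lay within the 8 hosts. Only 3 of them, all snoRNA genes within Gas5, had any count, 55 in total. Of the 41 genes 27 lie inside an exon of the host, where a read overlaps both genes. Whether the counting dropped such reads is not stated, and the 3 genes with counts lie outside the host exons. The values here are those of the host transcripts, and they say nothing about the level of the mature microRNAs.

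Promoters were compared because the study asked about transcription factors upstream of lncRNAs. The RefSeq table, on build GRCm38.p6, held 10 promoter windows for 7 of the 8 genes, each with 250 bases before and 50 after a transcript start. The motifs were searched on both strands: the STAT motif TTCNNNGAA, the AP-1 motif TGANTCA, the E-box CACGTG, the TATA box TATAAA and the SMAD motif CAGAC. Over all 32851 windows of the table these letters were found in 8.30%, 7.81%, 7.15%, 13.6% and 49.6% of windows. Capitals mark the matches in 4 windows, which stand for the gene with the called change, the one with a STAT match and the one with 2 overlapping TATA matches.
Mir100hg, first window, chr9:41376276-41376575, plus strand: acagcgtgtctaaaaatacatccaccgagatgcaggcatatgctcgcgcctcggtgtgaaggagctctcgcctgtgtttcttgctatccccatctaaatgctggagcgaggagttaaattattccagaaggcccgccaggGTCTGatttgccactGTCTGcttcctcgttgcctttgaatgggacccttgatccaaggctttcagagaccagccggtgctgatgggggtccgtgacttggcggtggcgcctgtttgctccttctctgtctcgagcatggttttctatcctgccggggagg
Mir100hg, second window, chr9:41474643-41474942, plus strand: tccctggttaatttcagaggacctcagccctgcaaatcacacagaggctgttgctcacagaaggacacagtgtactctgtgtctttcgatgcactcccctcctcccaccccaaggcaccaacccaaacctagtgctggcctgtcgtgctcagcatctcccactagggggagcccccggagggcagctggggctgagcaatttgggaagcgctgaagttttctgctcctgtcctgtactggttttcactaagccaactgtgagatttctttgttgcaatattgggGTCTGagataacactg
Rian, chr12:109603695-109603994, plus strand: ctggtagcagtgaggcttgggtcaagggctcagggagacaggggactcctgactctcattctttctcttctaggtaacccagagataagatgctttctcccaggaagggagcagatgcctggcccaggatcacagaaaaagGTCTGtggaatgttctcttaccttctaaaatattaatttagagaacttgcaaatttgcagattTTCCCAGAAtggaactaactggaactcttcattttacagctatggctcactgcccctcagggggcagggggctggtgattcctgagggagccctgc
Meg3, first window, chr12:109540746-109541045, plus strand: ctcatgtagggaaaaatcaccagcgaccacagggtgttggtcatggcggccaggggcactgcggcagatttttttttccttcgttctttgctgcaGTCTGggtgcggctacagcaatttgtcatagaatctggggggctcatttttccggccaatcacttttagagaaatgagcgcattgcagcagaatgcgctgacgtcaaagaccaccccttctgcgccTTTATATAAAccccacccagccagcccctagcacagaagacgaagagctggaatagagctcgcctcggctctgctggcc

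Rian held the only STAT match of the 10 windows, TTCCCAGAA at 46 bases before the start. The Mir100hg windows held SMAD matches alone, a short motif found in 49.6% of all windows. Neither the AP-1 motif nor the E-box was found in any of the 10 windows. A match is a string of letters and not a measured binding site. The study scored a STAT3 matrix over a longer stretch of the human MIR100HG promoter, and the shorter mouse windows and fixed letters used here do not bear on that search.

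The depth of the mouse transcriptome differed strongly between the groups. Mouse genes took 0.778% to 1.93% of all human and mouse counts in siControl and 97.9% to 99.0% in siAATF, which is 213022 to 913584 mouse counts against 11835898 to 42563694. A level of 3 counts was therefore worth 3.28 to 14.1 counts per 1000000 mouse counts (CPM) in siControl, but only 0.0705 to 0.253 CPM in siAATF. Markers of hepatocytes, which define the labelled tissue, were higher in siAATF for 12 of 12 genes, with a summed level of 3136 to 7978 CPM against 50199 to 124961 CPM after TMM normalization, and none of them was at 0. Mitochondrial genes held 4.04% to 10.5% of mouse counts in siControl and 25.7%, 56.1% and 20.8% in siAATF replicates 1, 2 and 3. In bulk tissue, fewer cells of a type and less RNA per cell cannot be told apart. The part of cell makeup, mitochondrial share and depth in the results below was not tested.

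For mouse Aatf itself, siControl gave 12, 1 and 23 counts, while siAATF gave 384, 109 and 340. After TMM normalization this was 8.29 ± 5.33 CPM (SD, n = 3) and 18.0 ± 4.43 CPM, and every siAATF library lay above every siControl library. The fitted log2 fold change was 0.93 ± 0.47 (SE), with an adjusted p of 0.152 in edgeR's quasi-likelihood test. It turned to −0.92 (adjusted p = 0.174) when libraries were scaled by their mouse total alone, and was 5.04 (adjusted p = 3.77e-10) when they were scaled by human and mouse counts together. As CPM of mouse counts it was 15.6 ± 10.3 in siControl and 9.32 ± 0.363 in siAATF (SD, n = 3), and the groups overlapped. The direction of the Aatf difference thus depended on the scaling. Human AATF, in the tumor cells, was not analysed here.

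Of the 8 lncRNA genes, only Mir100hg passed the test. It was lower in siAATF, with a log2 fold change of −3.55 ± 0.71 (SE) and an adjusted p of 0.00221 (edgeR, Benjamini-Hochberg over 18018 mouse genes). In the same comparison 32.0% of all mouse genes tested were called, 14.4% as lower and 17.6% as higher. Of the lncRNA genes tested 14.6% were called, 2.96% as lower and 11.7% as higher. The fitted values of the 8 genes were negative for 5 and positive for 3, with a median of −0.45, beside 0.50 over all genes tested, of which 6950 were negative and 11068 positive. The lncRNA genes tested had a median of 2.33, with 471 negative and 1656 positive. TMM-normalized levels of the groups did not overlap for 4 of the 8 genes, of which 3 were lower and 1 higher in siAATF, where 52.7% of all genes tested showed no overlap, 18.1% as lower and 34.5% as higher. Among the lncRNA genes the groups were apart for 49.8%, 3.76% as lower and 46.1% as higher. A share of 1 in 8 called and 4 in 8 apart was no more than the background over all genes.

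**Figure D1:**
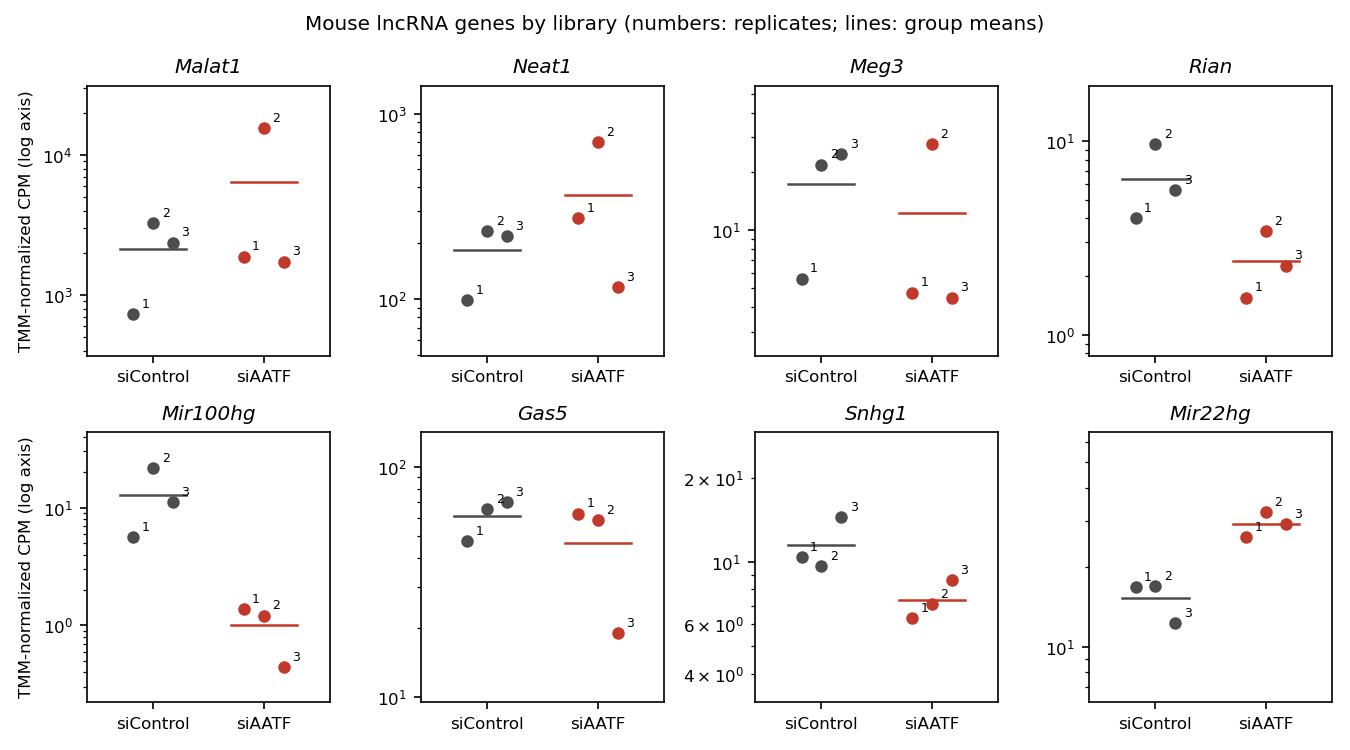
TMM-normalized CPM (log axis, different range in each panel) of the 8 lncRNA genes in the 3 siControl (grey) and 3 siAATF (red) libraries, with replicate numbers beside the points and lines at the group means. Mir100hg, Rian and Snhg1 lie lower in every siAATF library, Mir22hg lies higher, and siAATF replicate 2 stands far above the other two for Malat1, Neat1 and Meg3.

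Mir100hg (ENSMUSG00000074415) spans 389918 bases of chromosome 9, chr9:41238373-41628290 on the plus strand of GRCm39, with 28 merged exons of 13637 bases. It hosts Mir100, Mirlet7a-2 and Mir125b-1, none of which lies in an exon of the host. The siControl replicates 1, 2 and 3 gave 7, 9 and 20 counts of it, and the siAATF replicates 40, 6 and 8, from libraries that were many times deeper. TMM-normalized levels were 5.62, 21.7 and 11.2 CPM in siControl and 1.38, 1.21 and 0.444 CPM in siAATF. All 3 siAATF libraries were below the lowest siControl library. The group means were 12.8 ± 8.19 CPM and 1.01 ± 0.499 CPM (SD, n = 3).

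Mir100hg was the 71st, 24th and 45th most counted lncRNA gene in the siControl libraries and the 617th, 992nd and 1194th in siAATF. The siAATF libraries detected more lncRNA genes in all, 2905 to 3792 against 646 to 1491. Among the 2127 lncRNA genes tested its fold change lay at percentile 2.12, and at 1.04 among the 772 with a mean of at least 10 counts. These percentiles rest on a class in which 829 genes had 0 counts in every siControl library, so that their fitted changes are upward by the filter.

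The lower level of Mir100hg held per mouse count and not per count of the whole library. Scaled by the mouse total alone its log2 fold change was −5.28, with an adjusted p of 7.09e-06. Scaled by human and mouse counts together it was 0.89, with an adjusted p of 0.343, and its level of 0.192, 0.329 and 0.370 CPM of all counts in siControl overlapped the 0.931, 0.496 and 0.226 of siAATF. All mouse genes shifted with the scaling, and their median was 0.50 under TMM, −1.30 under the mouse total and 4.66 under the joint total. Relative to that median Mir100hg stood at −4.05, −3.98 and −3.77. It was the gene of the 8 that lay farthest below the median under each of the 3 scalings. A scaling acts on all genes of a library alike, so their order stays nearly the same by construction. The 3 scalings are thus not separate tests of that order.

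Most of the listed markers of stromal cells were also lower per mouse count. Of the 12 markers of hepatic stellate cells and fibroblasts, 8 were called lower and 0 higher. The sum over all 12, 8686 to 12761 CPM in siControl, compared with 472 to 706 CPM in siAATF. The collagen genes Col1a1, Col1a2 and Col3a1 had the highest siControl means of that list, at 3409, 3176 and 3119 CPM. Lrat (0.89), Reln (0.57) and Rgs5 (0.35) had positive log2 fold changes, none of them called. Of the 10 endothelial markers 6 were lower and 1 higher, with sums of 643 to 911 CPM and 154 to 381 CPM. The higher gene was Clec4g (3.48, edgeR adjusted p = 0.0159), with 8, 0 and 0 counts under siControl. Stab2 (0.85) and Tek (0.08) were positive but not called. No marker of either list was at 0 in a whole group. As CPM of human and mouse counts together the stellate and fibroblast sum was 184 to 423 (siControl) and 225 to 476 (siAATF), which overlapped, as Mir100hg did. On that scale the endothelial sum was 13.8 to 28.5 (siControl) and 70.9 to 257 (siAATF), higher without overlap, unlike Mir100hg. Of the other marker lists, neutrophil genes were lower for 6 of 8, lymphocyte genes for 2 of 6 tested, cholangiocyte genes for 2 of 5 tested and proliferation genes for 6 of 6. These counts rested on single libraries, with 1 neutrophil gene called without siControl replicate 2 or 3 and 2 without siAATF replicate 2, 0 lymphocyte genes without siControl replicate 3 and 1 without siControl replicate 2 or siAATF replicate 1 or 2, 1 cholangiocyte gene without siControl replicate 1 or 3, and 3 proliferation genes without siControl replicate 3. The summed neutrophil levels overlapped, at 96.3 to 1930 CPM in siControl against 2.22 to 141 CPM under siAATF. Of 6 erythroid genes 0 were called by edgeR, DESeq2 or limma-voom, also at an unadjusted p under 0.05, while edgeR called 1 without siAATF replicate 3. Whether Mir100hg moved with the number of these cells was not tested.

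The genes whose pattern over the 6 libraries was nearest to that of Mir100hg were Robo4, an endothelial guidance receptor, Dysf, a membrane repair protein, and Fmnl3, a formin. Their root-mean-square differences from Mir100hg were 0.30, 0.32 and 0.34 in centred log2 CPM, among 9451 genes compared. The nearest protein-coding genes on either side, both far away, were lower as well. Ubash3b, a suppressor of tyrosine kinase signaling 169015 bases before it, had a log2 fold change of −2.44 (edgeR adjusted p = 0.0011), and Sorl1, a sorting receptor 247726 bases after it, had −3.59 (edgeR adjusted p = 0.0014). Both turned positive under the joint human and mouse total, at 1.79 and 0.74. The lncRNA genes Gm48742 and Gm48740, which overlap Mir100hg on the opposite strand, held 0 to 16 counts per library, and reads of either strand could not be told apart, since the counting is not stated to use strand.

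Mir22hg (ENSMUSG00000085148, chr11:75352365-75357502, plus strand) has 3 merged exons of 1752 bases, and Mir22 lies within an exon. The siControl libraries held 21, 7 and 22 counts of it, against 756, 161 and 527 under siAATF. Its levels were 16.9, 16.9 and 12.3 CPM in siControl and 26.1, 32.5 and 29.2 CPM in siAATF after TMM normalization. On this scale it was the only one of the 8 genes at a higher level in every siAATF library. The group means were 15.3 ± 2.66 CPM and 29.3 ± 3.19 CPM (SD, n = 3), and the log2 fold change of 0.96 ± 0.36 (SE) did not pass, with an edgeR adjusted p of 0.0594 and an unadjusted p of 0.0200. Without siAATF replicate 2 the value was 0.95 with an adjusted p of 0.0448. Under the mouse total alone it turned to −0.87, and to −0.13 in libraries thinned to the smallest mouse total. As CPM of mouse counts Mir22hg was 28.9 ± 4.46 in siControl and 15.5 ± 2.11 in siAATF (SD, n = 3), lower in every siAATF library.

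The ratio of Mir22hg to Mir100hg within a library does not depend on the library total used for scaling. It was 2.87, 0.789 and 1.10 in siControl and 18.7, 24.8 and 62.1 in siAATF, and the groups did not overlap. The mean log2 ratio rose from 0.44 ± 0.97 to 4.94 ± 0.91 (SD, n = 3), a difference of 4.50, or 22.6-fold, for which a two-sided exact permutation test gave p = 0.1, the smallest that 3 libraries against 3 allow. With all libraries thinned to the smallest mouse total the difference was 1.86, with p = 0.2 in the same exact test. Thinning to 213022 counts leaves few or none of the 40, 6 and 8 siAATF counts of Mir100hg, so the pseudocount largely sets that ratio. Tlcd2, the protein-coding gene 1403 bases after Mir22hg on the same strand, was higher in siAATF under every scaling, with a TMM value of 4.02 (edgeR adjusted p = 0.0002). Wdr81, which lies before it, had 1.01 (edgeR adjusted p = 0.0594), close to the value of Mir22hg itself, and −0.76 under the mouse total alone. It was called higher in 4 of 16 alternatives, among them without siAATF replicate 2 (1.22, adjusted p = 0.0152).

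Other host genes of microRNAs gave 8 tested genes of the 13 found in the table. Of these, 2 were lower and 0 higher, with a median of −0.46. Mir142hg, whose microRNA is known from blood cells, had a log2 fold change of −3.75 (edgeR adjusted p = 0.000519), and H19, an imprinted fetal lncRNA that hosts miR-675, had −3.51 (edgeR adjusted p = 0.0176). Both turned positive under the joint total, at 0.59 and 0.51, and the H19 call was lost without siControl replicate 1 (adjusted p = 0.0711) or 3 (adjusted p = 0.0944). The number of these host genes called was 1 without siControl replicate 1 or 3, and 4 without siAATF replicate 3. Macrophage markers, 5 of 10 lower and 1 higher, summed to 662 to 2871 CPM in siControl but 145 to 216 CPM in siAATF. The higher gene was Cd163, with 0 counts in every siControl library and 60, 21 and 106 counts under siAATF. It passed the filter only through the far deeper siAATF libraries, which fixed its direction, so that no fold is given.

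Malat1 (ENSMUSG00000092341, chr19:5845718-5852699, minus strand) was the most counted mouse lncRNA in each of the 6 libraries. Its reads numbered 914, 1356 and 4233 under siControl, then 54358, 77139 and 31215 under siAATF, which was 18.8%, 44.1% and 37.6% and then 19.6%, 51.9% and 20.0% of all lncRNA counts. The 8 genes together held 23.6% to 49.1% in siControl and 22.1% to 54.7% in siAATF, so that the share varied as much within the groups as between them.

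**Figure D2:**
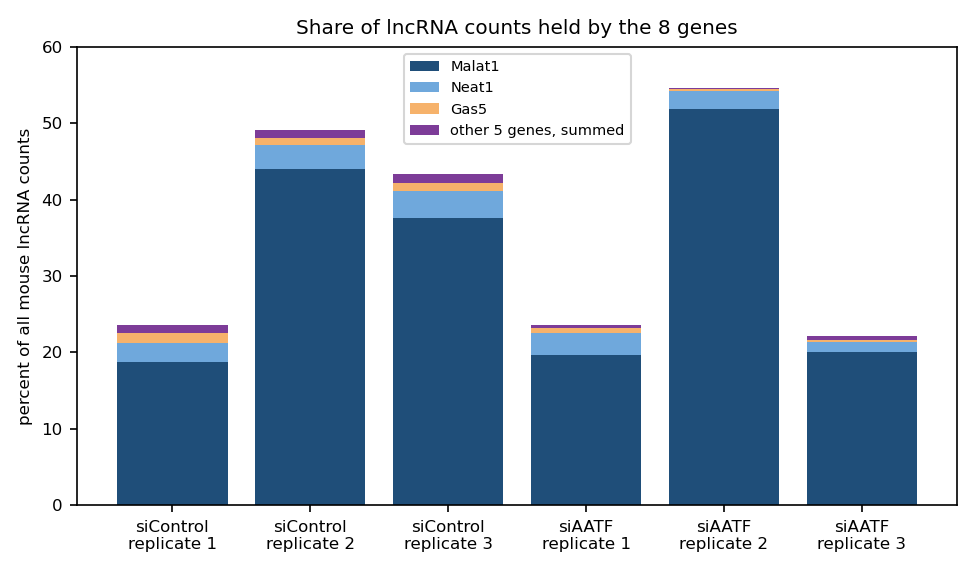
Percent of all mouse lncRNA counts of a library (bar height, linear axis from 0) taken by Malat1, Neat1, Gas5 and the sum of the other 5 genes. Malat1 makes up most of each bar, from 18.8% to 44.1% in siControl and from 19.6% to 51.9% in siAATF.

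TMM-normalized levels of Malat1 were 734, 3276 and 2361 CPM in siControl and 1876, 15559 and 1732 CPM in siAATF. siAATF replicate 2 was far above the other libraries, and the other two siAATF libraries lay within the siControl range. That library also had the highest mitochondrial share, 56.1%, and the lowest depth of its group. The log2 fold change of 1.59 ± 0.97 (SE), with a 95% interval of −0.31 to 3.49 and an edgeR adjusted p of 0.233, did not pass. It turned to −0.22 without that library and to −0.50 under the mouse total alone.

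Neat1 (ENSMUSG00000092274, chr19:5874736-5895898, minus strand, 1 merged exon of 21163 bases) showed the same order of libraries in siAATF. The siControl libraries held 123, 96 and 393 counts and the siAATF libraries 7942, 3490 and 2087, or 98.8, 232 and 219 CPM and 274, 704 and 116 CPM after TMM normalization. Replicate 2 was again the highest, and the groups overlapped. The log2 fold change was 1.00 ± 0.63 (SE), with an edgeR adjusted p of 0.248. Without siAATF replicate 3, the lowest of its group, the value was 1.45 with an adjusted p of 0.0478, while without siAATF replicate 2 it was 0.13 (adjusted p = 0.863). After thinning to the smallest mouse total it was 0.12 (adjusted p = 0.902), and under the mouse total alone −0.96.

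The ratio of Neat1 to Malat1 was 0.135, 0.0711 and 0.0929 in siControl and 0.146, 0.0452 and 0.0669 in siAATF. The ranges overlapped, and the log2 difference of −0.34 had an exact two-sided permutation p of 0.6. Levels per kilobase of exon set these neighbors further apart, with Malat1 at 382 ± 232 and 1149 ± 1429 CPM per kb and Neat1 at 8.66 ± 3.47 and 17.2 ± 14.4 CPM per kb in siControl and siAATF (SD, n = 3). By this measure Malat1 was the highest of the 8 genes. Rian had the lowest mean in siControl, at 0.290 ± 0.132 CPM per kb, where its range overlapped that of Mir100hg, and Mir100hg had the lowest mean in siAATF, at 0.0742 ± 0.0366, where it overlapped Rian at 0.109 ± 0.0427. Gas5 came next to Malat1 in siControl at 21.1 ± 4.17 CPM per kb, followed by Mir22hg at 8.76 ± 1.52 and Neat1, which did not differ beyond their spread. In siAATF, Neat1, Mir22hg at 16.7 ± 1.82 and Gas5 at 16.2 ± 8.34 CPM per kb did not differ beyond their spread. Snhg1 (3.89 ± 0.877 and 2.47 ± 0.393 CPM per kb) lay above Meg3 (1.09 ± 0.643 and 0.774 ± 0.836) in both groups, and Meg3 and Mir100hg (0.942 ± 0.601 in siControl) overlapped in siControl.

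The protein partners of these nuclear RNAs were mostly not called under TMM. Of 13 paraspeckle proteins 1 was lower and 0 higher (median log2 value −0.31), and of 10 nuclear speckle proteins 1 was lower and 0 higher, with a median of −0.18. The called genes were Rbm3, a cold-inducible RNA-binding protein (−2.46, edgeR adjusted p = 0.00656), and Rnps1, a splicing activator (−2.39, edgeR adjusted p = 0.00463), and both turned positive under the joint total, at 1.89 and 1.95. DESeq2 called 3 paraspeckle and 2 speckle genes, and limma-voom 2 and 1. Of the paraspeckle genes 12 were called lower under the mouse total alone and 13 higher under the joint total, and of the speckle genes 7 lower and 10 higher. Under TMM the paraspeckle count was 2 without siAATF replicate 1 or 3, and the speckle count 2 without siAATF replicate 2. Frmd8, the protein-coding gene 3832 bases from Neat1, lies upstream of it, with both on the minus strand. It had −1.01 (edgeR adjusted p = 0.0922), and 3.27 under the joint total. It was called lower in 7 of 17 alternatives, among them without siAATF replicate 3 (−1.36, adjusted p = 0.0271). The patterns nearest to Malat1 and Neat1 were those of Nktr, a cyclophilin-related protein, and Pus7, a pseudouridine synthase, with root-mean-square differences of 0.31 and 0.23.

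Meg3 (ENSMUSG00000021268, chr12:109506880-109538160, plus strand, 11 merged exons) was counted 7, 9 and 44 times under siControl, against 138, 137 and 81 times under siAATF. After TMM normalization its levels were 5.62, 21.7 and 24.5 CPM and 4.76, 27.6 and 4.49 CPM. As for Malat1 and Neat1, siAATF replicate 2 stood apart, here above the highest siControl library, while the other two siAATF libraries lay below the lowest. The log2 fold change was −0.52 ± 0.74 (SE), with a 95% interval of −1.97 to 0.93 and an edgeR adjusted p of 0.615. Without siAATF replicate 2 it was −1.83, with an adjusted p of 0.0310, and after thinning −1.74, with one of 0.137. It came close to 0 without siControl replicate 3 (−0.0076), siAATF replicate 3 (−0.063) or siAATF replicate 1 (−0.082).

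Rian (ENSMUSG00000097451, chr12:109570242-109628150, plus strand, 22 merged exons), which lies downstream of Meg3 and carries snoRNAs and microRNAs, was counted thinly. Under siControl 5, 4 and 10 counts were found, under siAATF 45, 17 and 41, or 4.01, 9.66 and 5.58 CPM and 1.55, 3.43 and 2.27 CPM after TMM normalization. All siAATF libraries lay below all siControl libraries. The log2 fold change of −1.33 ± 0.66 (SE) had an edgeR adjusted p of 0.149. Under the joint total Meg3 and Rian turned to 3.60 and 2.90, both below the median of all genes, 4.66.

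The log2 ratio of Rian to Meg3 differed by −0.65 between the groups, with an exact two-sided permutation p of 0.5. Of the 9 listed genes of the Dlk1-Dio3 region, with Meg3 and Rian among them, 5 were tested and 0 passed edgeR's test, with a median of −0.95. An unadjusted p under 0.05 was reached by 1 of the 5, and DESeq2 and limma-voom each called 1, as did edgeR without siAATF replicate 1 or 2. The protein-coding neighbors were nearly silent, with 1 count of Dlk1, a growth regulator, over all libraries and 0 of Rtl1, a retrotransposon-derived gene. Ddit3, a stress-response transcription factor, was nearest in pattern to Rian, at a root-mean-square difference of 0.14, and Pim1, a kinase, was nearest to Meg3, at 0.48.

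Gas5 (ENSMUSG00000053332, chr1:160862152-160866116, plus strand, 6 merged exons) was found with 59, 27 and 126 counts under siControl, against 1813, 290 and 342 under siAATF. Its TMM-normalized levels of 47.4, 65.2 and 70.3 CPM in siControl overlapped the 62.6, 58.5 and 18.97 CPM of siAATF, where replicate 3 was the low library. The log2 fold change was −0.38 ± 0.46 (SE), with a 95% interval of −1.29 to 0.52 and an edgeR adjusted p of 0.539, and it was 0.05 without siAATF replicate 3 and −1.38 after thinning (adjusted p = 0.0514). Of its snoRNA genes, Snord78 gave 0, 1 and 2 counts under siControl and 8, 2 and 10 under siAATF, too few to follow the host.

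Snhg1 (ENSMUSG00000108414, chr19:8700848-8703811, plus strand, 1 merged exon of 2964 bases) was found with 13, 4 and 26 counts under siControl, against 183, 35 and 155 under siAATF. Its levels of 10.4, 9.66 and 14.5 CPM in siControl lay above the 6.31, 7.06 and 8.60 CPM of siAATF without overlap. The log2 fold change was −0.70 ± 0.42 (SE) and did not pass, with an edgeR adjusted p of 0.231. Slc3a2, an amino acid transporter subunit that starts 115 bases away on the opposite strand, had −1.40 (edgeR adjusted p = 0.0133), and 2.89 under the joint total, and its call was lost without siControl replicate 3 (adjusted p = 0.0623). Under that total Gas5 and Snhg1 turned to 3.93 and 3.51.

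The log2 ratio of Snhg1 to Gas5 differed by −0.16, with an exact two-sided permutation p of 0.9. Of 15 other snoRNA host genes tested, 3 were called, all with positive values, and the median was 0.21. Snhg8 had 1.32 (edgeR adjusted p = 0.0165), which turned to −0.46 under the mouse total alone and to −0.07 after thinning, and its call was lost without siControl replicate 2 (adjusted p = 0.0543) or 3 (adjusted p = 0.0766). Snhg11 and Snhg14 had 0 counts in every siControl library. They passed the filter through the far deeper siAATF libraries alone, which fixed their direction, so that no fold is given. They held 83, 76 and 40 and then 39, 26 and 55 counts in siAATF. Both calls were lost in limma-voom (adjusted p = 0.0743 and 0.0891), that of Snhg14 also under the mouse total alone and without siControl replicate 1, and without siControl replicate 3 none of the 3 host genes was called.

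**Figure D3:**
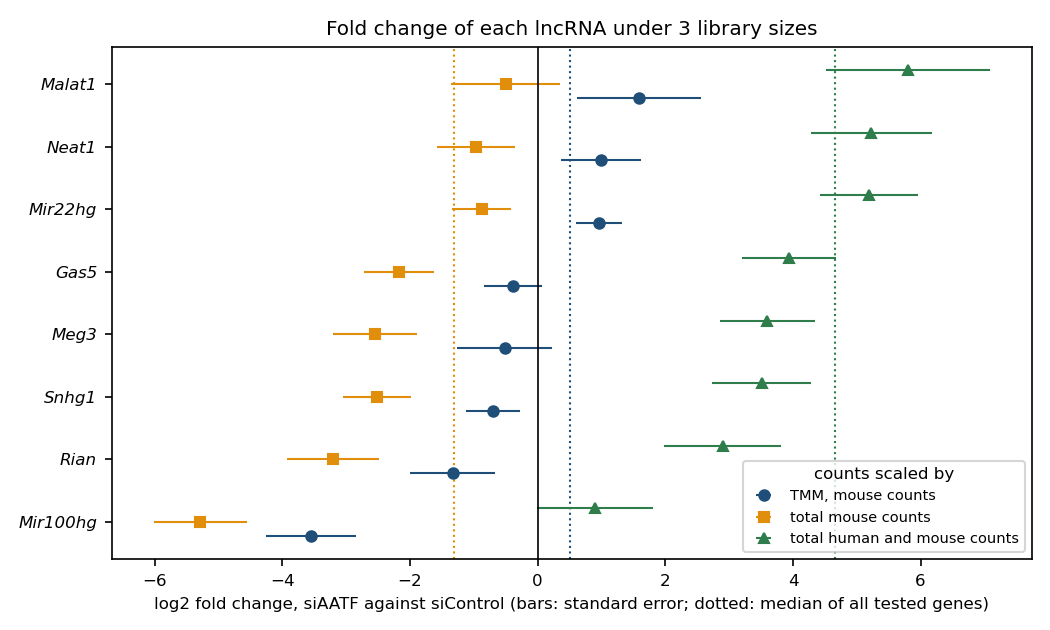
Log2 fold change of siAATF against siControl (x axis, bars for the standard error) for each of the 8 genes with counts scaled by TMM on mouse counts (circles), by total mouse counts (squares) or by total human and mouse counts (triangles), with dotted lines at the median of all tested genes. The values shift together with the medians of 0.50, −1.30 and 4.66, since a scaling acts on all genes of a library alike. Mir100hg is the lowest gene under each scaling, an order that the scalings leave nearly unchanged by construction.

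The number of the 8 genes called depended on the total that was held equal. Under TMM it was 1, under the mouse total alone it was 5, all lower, where 44.5% of all genes were called, 40.4% as lower and 4.15% as higher, and under the joint total it was 7, all higher, where 87.9% were called, 87.2% as higher and 0.66% as lower. The 5 lower genes under the mouse total were Mir100hg, Rian (−3.21), Meg3 (−2.55), Snhg1 (−2.52) and Gas5 (−2.18). Mir100hg was the only gene of the 8 that was not called higher under the joint total. The context lists shifted likewise, with 9 of 20 other well-known lncRNA genes lower under the mouse total and 16 higher under the joint total, 6 of 15 other snoRNA hosts lower (1 higher) and then 15 higher, and 4 of 8 other microRNA hosts lower and then 5 higher. Mir100hg and Rian had the lowest fold changes of the 8 and Malat1 the highest under each of the 3 scalings, which by construction change the order little.

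**Figure D4:**
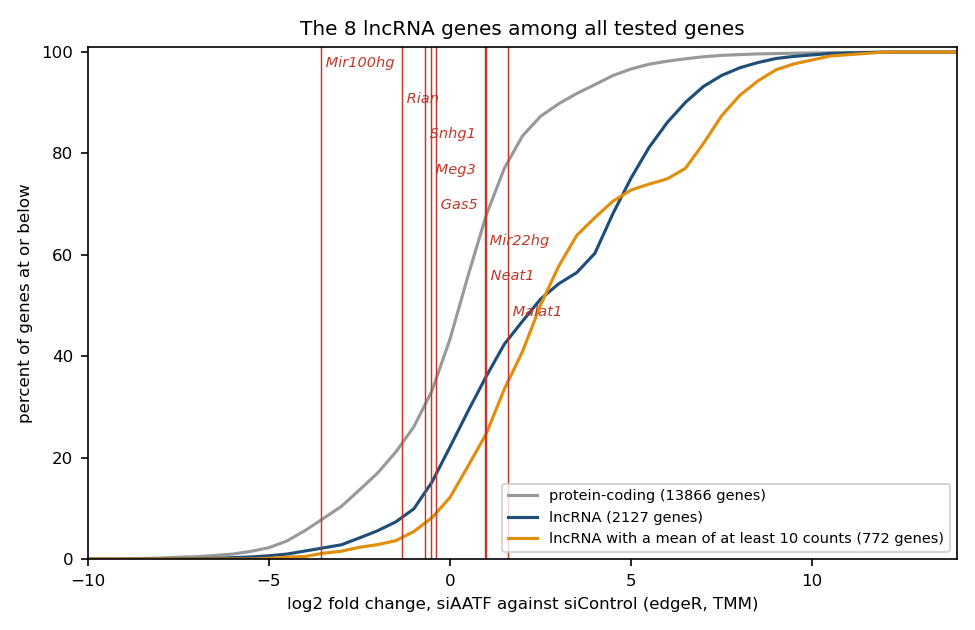
Percent of genes (y axis) at or below a log2 fold change (x axis) for tested protein-coding genes, all 2127 tested lncRNA genes and the 772 lncRNA genes with a mean of at least 10 counts, with red lines at the 8 genes. Mir100hg, at −3.55, lies in the lower tail of each curve, and the other genes lie between −1.33 and 1.59.

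Other well-known lncRNA genes gave a mixed picture. Of 31 listed, 20 were tested, and 2 were higher and 3 lower (median −0.41 on the log2 scale). The lower genes were Mirt1 (−4.44, edgeR adjusted p = 0.0103), Morrbid, known from myeloid cells (−3.13, edgeR adjusted p = 0.00673), and H19, given above. The higher genes were Kcnq1ot1, an imprinted antisense transcript (2.99, edgeR adjusted p = 0.0211), with 13, 30 and 66 counts under siControl and 3531, 3530 and 1264 under siAATF, and Jpx (2.03, edgeR adjusted p = 0.0405), an X-linked lncRNA, which was named after its value was seen. The Jpx call was lost in 10 of 16 alternatives, among them DESeq2 (adjusted p = 0.0570) and the mouse total alone (0.11, adjusted p = 0.911). The Kcnq1ot1 value fell to 1.41 without siAATF replicate 2 (adjusted p = 0.0995) and to 0.92 under the mouse total alone (adjusted p = 0.322), and its call was also lost without siControl replicate 1 (adjusted p = 0.0721) or 3 (adjusted p = 0.0958). The Mirt1 call was lost without siControl replicate 2 (adjusted p = 0.0692) and after thinning (−4.60, adjusted p = 0.0553), and that of Morrbid without siControl replicate 3 (adjusted p = 0.0553). In all, 2 genes of the list were called without siControl replicate 1, 3 without siControl replicate 2 and 1 without siControl replicate 3. Mirt1 and Morrbid turned to 0.17 and 1.27 under the joint total.

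The TGF-beta pathway is a driver of matrix production by stromal cells. Its list held ligands, receptors, SMAD proteins and latent TGF-beta binding proteins (Ltbp genes). Of these 16 genes 11 were lower and 0 higher, with a median of −2.02. Ltbp2, which binds the extracellular matrix, had −6.08 (edgeR adjusted p = 2.54e-05), Tgfb3 −4.31 (edgeR adjusted p = 0.000139), Tgfb1 −3.92 (edgeR adjusted p = 5.5e-05) and its receptor Tgfbr2 −3.83 (edgeR adjusted p = 0.000203). Ltbp2 stayed negative under the joint total, while the other three turned to 0.02, 0.40 and 0.42. Under that total 9 genes of the list were called higher and 1 lower.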

How the data were processed

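Total RNA of 6 liver libraries, 3 siControl and 3 siAATF, was made into libraries with the SMART-Seq kit, which amplifies by PCR. The authors trimmed reads with Cutadapt, aligned them with STAR 2.7.11 to the human and mouse genomes together, dropped reads with several positions, and counted genes with featureCounts 2.0.1 (versions from the submitters' processing notes). The deposited values are raw read counts per gene, without normalization or filtering, so precision is set by counting and by 3 libraries a group. Mouse totals were 213022 to 42563694 counts. Names came from gencode release M39 (GRCm39, the build of the table) for 56323 of 56884 identifiers.

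Mouse genes were fitted with the quasi-likelihood test of edgeR (edgeR 4.0.16, R 4.3.3), on mouse genes with at least 10 counts in total, with TMM normalization, the group as the only term and Benjamini-Hochberg adjustment over all 18018 genes. A gene was called at an adjusted p under 0.05. Standard errors are the fold change divided by the root of the F statistic, and 95% intervals are 1.96 standard errors to each side. These intervals are narrower than the F test implies. That of Rian, −2.63 to −0.027, is all negative although the quasi-likelihood test gave an unadjusted p of 0.0679. Ratios of genes used a pseudocount of 0.5 counts and exact permutation tests over libraries. The 8 genes and all gene lists were chosen with earlier results of these data known. Named beside them are the target, up to 4 called genes per list by size of change, the nearest protein-coding genes, small RNA genes inside the hosts, and the 3 genes nearest in pattern (mean of at least 50 counts). Outside this rule, Gm48742 and Gm48740 were named because they overlap Mir100hg, and Jpx was named after its value was seen. The uncalled stellate and endothelial markers with positive values were also named after their values were seen. Alternatives were DESeq2 1.42.0, limma-voom (limma 3.58.1), other normalizations, totals and filters, thinning, a replicate block, leaving out each library, and, chosen after seeing the data, a fit of lncRNA genes alone. Plots used Python 3.11.15 and matplotlib 3.10.9.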

Additional observations from a re-analysis of the deposited data

How the results depend on the processing

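The call of Mir100hg held under TMM, RLE and upper-quartile normalization, DESeq2 (−3.71), limma-voom, thinning (−4.91, adjusted p = 0.0339), the fit of lncRNA genes alone (−3.05, adjusted p = 0.0111, chosen after seeing the data) and leaving out each library (−3.96 to −3.07), and was lost under the joint total (0.89), with adjusted p between 1.53e-06 and 0.343. The number of the 8 genes called was 1, but 0 of 3 tested with at least 10 counts in every library (Mir100hg was not tested there), 7 under the joint total, 5 under the mouse total alone and 1 to 3 when a library was left out. It was 3 without siAATF replicate 2 and 2 without siAATF replicate 3. Depth limits the thinly counted genes, with 4 to 26 counts of Rian, Mir100hg and Snhg1 per siControl library. The thinned value of Mir100hg rests on few or no siAATF counts.

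Under the mouse total alone Malat1 (−0.50), Neat1 (−0.96), Mir22hg (−0.87), Aatf (−0.92), Snhg8 (−0.46) and Wdr81 (−0.76) changed sign, as did Mir22hg (−0.13) and Snhg8 (−0.072) after thinning. Under the joint total Meg3 (3.60), Rian (2.90), Mir100hg (0.89), Gas5 (3.93), Snhg1 (3.51), Mirt1 (0.17), H19 (0.51), Morrbid (1.27), Mir142hg (0.59), Rbm3 (1.89), Rnps1 (1.95), Tgfb3 (0.025), Tgfb1 (0.40), Tgfbr2 (0.42), Ubash3b (1.79), Sorl1 (0.74), Slc3a2 (2.89) and Frmd8 (3.27) did. Leaving out libraries took Malat1 from −0.22 (without siAATF replicate 2) to 2.06 and Gas5 from −0.63 to 0.046 (without siAATF replicate 3). The log2 ratio difference of Neat1 to Malat1 ran from −0.81 to 0.038 when a library was left out and was 0.038 without siAATF replicate 2. That of Rian to Meg3 ran from −1.09 to −0.09 and was 0.36 after thinning. That of Snhg1 to Gas5 ran from −0.83 to 0.25, was 0.25 without siAATF replicate 1 and 0.11 without siAATF replicate 2, and was 1.11 after thinning. That of Mir22hg to Mir100hg ran from 3.99 to 5.04. It was 1.86 after thinning, where the pseudocount largely set it, with an exact permutation p of 0.2. The cause of these changes was not tested.

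Same-numbered libraries of the groups correlated at 0.136, 0.158 and −0.0484 in their deviations from the group means over 9466 genes, so the numbers were not taken as pairs. With the replicate block 1 of the 8 genes was called, Mir100hg, at −3.55 (edgeR adjusted p = 1.53e-06). The ratio differences under the block were −0.34 for Neat1 to Malat1, −0.65 for Rian to Meg3, −0.16 for Snhg1 to Gas5 and 4.50 for Mir22hg to Mir100hg.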
